A study of Homo sapiens with 4 samples.

Results

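Matrix metalloproteinases are zinc-dependent enzymes that cut collagens, fibronectin and other proteins of the extracellular matrix, and the tissue inhibitors of metalloproteinases (TIMPs) bind and block them. The 9 genes described here, of 17791 in the deposited table, were taken by symbol: the collagenase gene MMP1, the gelatinase gene MMP2, the membrane-type enzyme genes MMP14, MMP15, MMP16 and MMP24, and the inhibitor genes TIMP1, TIMP2 and TIMP3. All 9 were found. They were measured by RNA sequencing of engineered prostate cancer tissues at day 15, in which human cells grew in a hydrogel made of poly(ethylene glycol) and fibrinogen. Each of the 4 groups had 1 library: PC-3 cells alone, LNCaP cells alone, and either line with BJ-5ta fibroblasts at 5 cancer cells to 1 fibroblast. In the submitters' labels PC-3 stands for castration-resistant disease (CRPC-ne) and LNCaP for androgen-dependent disease (ADPC); BJ-5ta is an immortalised line of normal human fibroblasts. No group was treated. Each group stands for 1 cancer line and at most 1 fibroblast line, and the growth protocol given for all samples describes PC-3 tissues in PC-3 medium, so the medium of the LNCaP tissues is not given in the sources used here. RNA came from more than 2 tissues, and how they were combined is not stated.

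Metalloproteinases are made as inactive precursors. A cysteine in the propeptide holds the zinc ion until the propeptide is removed, either outside the cell by other proteinases such as plasmin or, for the membrane-type enzymes, inside it by furin. MMP14 on the cell surface binds TIMP2, and this pair captures and activates the MMP2 precursor, so TIMP2 can both inhibit metalloproteinases and help to activate one. Fibroblasts are a well known source of metalloproteinases and TIMPs in connective tissue, while carcinoma cells vary widely in what they make.

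The metalloproteinases share a catalytic zinc site, and its coding sequence is shown for 5 of them so that their likeness can be read directly. MMP16 was not searched. Each line gives the 33 coding bases of the zinc-binding motif in the principal GENCODE v29 transcript (GRCh38), with the codons of the 3 zinc-binding histidines, the catalytic glutamate and the glycine ahead of the last histidine in capitals.
MMP1: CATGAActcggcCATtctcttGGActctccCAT
MMP2: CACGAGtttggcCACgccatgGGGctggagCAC
MMP14: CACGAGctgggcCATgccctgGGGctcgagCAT
MMP15: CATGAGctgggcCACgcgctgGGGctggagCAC
MMP24: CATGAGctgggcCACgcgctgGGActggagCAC
MMP15 and MMP24 shared 32 of these 33 bases, and MMP1 and MMP2 18. MMP14 shared 28 with MMP15, 27 with MMP2 and 23 with MMP1. Each of the 5 transcripts held 1 match to the motif of the cysteine switch. Between it and the zinc site, MMP14, MMP15 and MMP24 held 1, 3 and 2 matches to the furin motif, and MMP1 and MMP2 held 0.

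Total counts per library ran between 15520243 and 15865690, so 3 counts were worth 0.188 to 0.193 counts per 1000000 (CPM), and a count of 0 allows a level of up to that size. There were no replicates. Every comparison is therefore between 2 libraries rather than 2 conditions, no test between groups was possible, and each interval or floor given covers counting error only. The luminal genes EPCAM, KRT8, KRT18, CDH1 and HOXB13 exceeded 1 CPM in every library, and KLK3, the gene of prostate-specific antigen, had 0 counts in PC-3 and 60226 and 74134 in LNCaP. Each monoculture held 2 of 17 measurable fibroblast markers at 1 CPM, and each coculture 15. Their summed level was 51.3 CPM for PC-3 alone, 16.1 for LNCaP alone, 452 for PC-3 with fibroblasts and 764 for LNCaP with fibroblasts. POSTN, which encodes periostin, was at 0 in LNCaP with fibroblasts and at 2 counts in PC-3 with fibroblasts. In the order PC-3 alone, LNCaP alone, PC-3 coculture and LNCaP coculture, endothelial markers (3 of 4 in the table) summed to 218, 10.8, 233 and 36.6 CPM. These markers did not go together. Their counts in the same order were 2681, 0, 2562 and 0 for KDR, 806, 0, 1091 and 1 for PECAM1, and 0, 171, 3 and 567 for VWF. Of 5 blood markers the table held CD68, with 678, 67, 888 and 245 counts. The 4 comparisons below share these libraries, so they are not independent of each other. In bulk RNA, fewer cells of a type and less RNA per cell cannot be told apart, and which cells held a transcript in the cocultures was not tested.

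**Figure D1:**
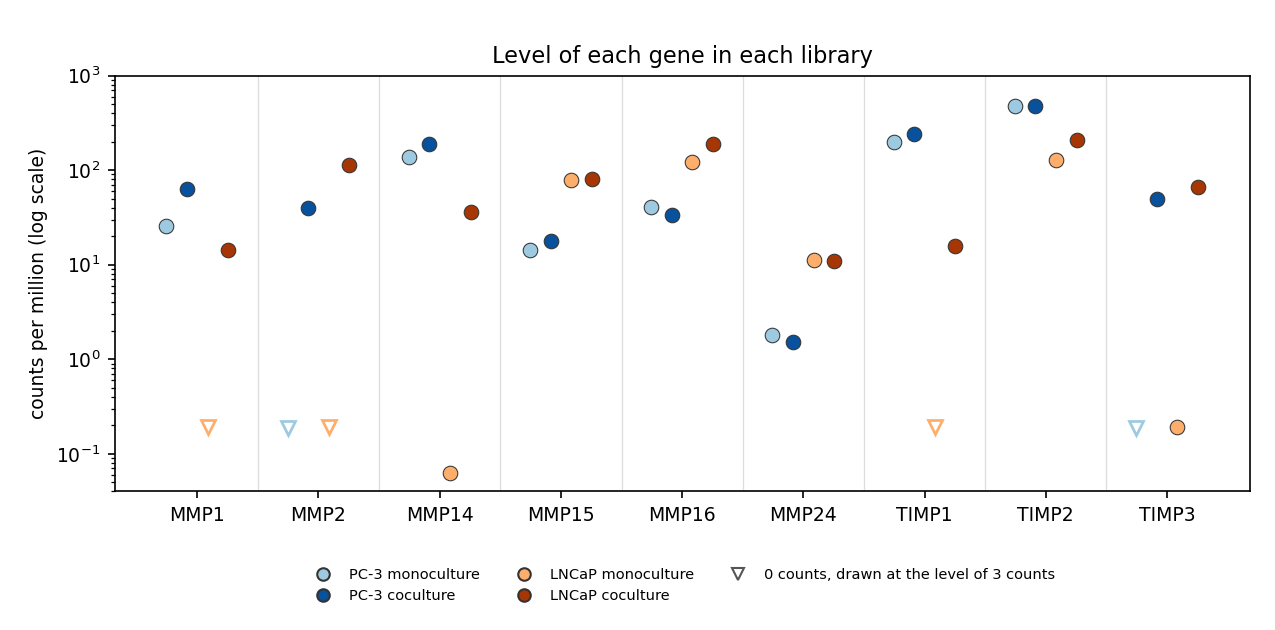
Level of each of the 9 genes in the 4 libraries in CPM on a log axis, with each point 1 library and open triangles marking 0 counts, drawn at the level of 3 counts. MMP2 and TIMP3 had at most 3 counts in either monoculture and between 39.4 and 115 CPM in the cocultures, and MMP1, MMP14 and TIMP1 had at most 1 count in the LNCaP monoculture.

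MMP1 encodes the interstitial collagenase, which opens the triple helix of type I collagen. It had 414 counts (25.9 CPM) in the PC-3 monoculture, 983 (62.7 CPM) in the PC-3 coculture, 0 in the LNCaP monoculture and 220 (14.2 CPM) in the LNCaP coculture. Both cocultures were above their monocultures, and the PC-3 monoculture was still above the LNCaP coculture. The PC-3 coculture was 2.42-fold higher than its monoculture (95% interval 2.15 to 2.72) and the LNCaP coculture at least 74.7-fold higher, a bound taken against 3 counts. MMP1 lies on chromosome 11, 102789919 to 102798160 (RefSeq, GRCh38.p14), and shares 150 exon bases with WTAPP1 on the opposite strand, which had 12 counts or fewer in each library.

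MMP2 encodes gelatinase A, which cuts denatured collagen and the type IV collagen of basement membranes. It had 0 counts in either monoculture, 617 (39.4 CPM) for PC-3 with fibroblasts and 1779 (115 CPM) for LNCaP with fibroblasts. Either coculture was above either monoculture, and the LNCaP coculture was the highest of the 4. How many genes of the whole table separate the libraries in this way, here or for the genes below, was not counted. The coculture was at least 209.5-fold higher than the monoculture for PC-3 and at least 604-fold higher for LNCaP. MMP2 lies on chromosome 16, 55478830 to 55506691.

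MMP14, on chromosome 14 (22836585 to 22847758), encodes a membrane-type collagenase that also activates the MMP2 precursor. It had 2205 counts (138 CPM) in the PC-3 monoculture, 2955 (189 CPM) in the PC-3 coculture, 1 in the LNCaP monoculture and 566 (36.5 CPM) in the LNCaP coculture. Among the metalloproteinases described here, it was the most abundant per transcript length in the PC-3 monoculture, and it was close to absent from the LNCaP monoculture. The PC-3 coculture was 1.37-fold higher (1.29 to 1.44), and the LNCaP coculture 576-fold higher (103 to 22798) from that single count.

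The other membrane-type genes differed more between the cancer lines than between monoculture and coculture. MMP15, on chromosome 16 (58025754 to 58046901), had 231 counts (14.5 CPM) in the PC-3 monoculture, 279 (17.8 CPM) in the PC-3 coculture, 1233 (78.1 CPM) in the LNCaP monoculture and 1250 (80.6 CPM) in the LNCaP coculture. Its coculture folds were 1.23 (1.03 to 1.47) for PC-3 and 1.03 (0.953 to 1.12) for LNCaP. Both LNCaP libraries were above both PC-3 libraries.

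MMP16, on chromosome 8 (88032011 to 88327483), had 645 counts (40.4 CPM) in the PC-3 monoculture, 523 (33.4 CPM) in the PC-3 coculture, 1908 (121 CPM) in the LNCaP monoculture and 2905 (187 CPM) in the LNCaP coculture. Again both LNCaP libraries were above both PC-3 libraries. Within a line the directions were opposite: the coculture had a fold of 0.826 (0.735 to 0.928) for PC-3 and 1.55 (1.46 to 1.64) for LNCaP.

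MMP24, on chromosome 20 (35226690 to 35276998), was the least abundant of the 9 in the PC-3 coculture, at 24 counts (1.53 CPM), against 29 (1.82 CPM) in the PC-3 monoculture, 175 (11.1 CPM) in the LNCaP monoculture and 168 (10.8 CPM) in the LNCaP coculture. Its coculture folds were 0.843 (0.470 to 1.50) for PC-3 and 0.977 (0.786 to 1.21) for LNCaP, so a difference was not detectable at this depth. Its deposited values were not whole numbers in any library (29.5 estimated counts in the PC-3 monoculture, for example). MMP24OS, a gene on the opposite strand of the same region, had 1068 to 2824 counts, but was not found to share exon bases with MMP24 in GENCODE v29. AL121753.2 on the opposite strand shares 162 of 4414 exon bases with MMP24 and is not in the deposited table. The library kit does not mark strand and the annotation used for counting is not given, so the MMP24 values are uncertain. Shared exon bases with genes absent from the table were also found for TIMP2 (367 of 4075), MMP2 (174 of 4738) and MMP16 (118 of 11558). Their effect on the counts of these genes was not tested.

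TIMP1, on chromosome X (47582436 to 47586789), encodes a secreted inhibitor that binds most metalloproteinases but inhibits the membrane-type enzymes poorly. It had 3160 counts (198 CPM) in the PC-3 monoculture, 3768 (240.5 CPM) in the PC-3 coculture, 0 in the LNCaP monoculture and 246 (15.9 CPM) in the LNCaP coculture. The PC-3 libraries were far above the LNCaP libraries with or without fibroblasts. The coculture was 1.21-fold higher (1.16 to 1.27) for PC-3 and at least 83.5-fold higher for LNCaP.

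TIMP2, the inhibitor that also joins MMP14 in activating MMP2, was present in every library. It had 7701 counts (482 CPM) in the PC-3 monoculture, 7517 (479.7 CPM) in the PC-3 coculture, 2006 (127 CPM) in the LNCaP monoculture and 3216 (207 CPM) in the LNCaP coculture. The PC-3 libraries were nearly level, with a fold of 0.994 (0.963 to 1.03), and the LNCaP coculture was 1.63-fold higher than its monoculture (1.54 to 1.73). TIMP2 lies on chromosome 17, 78852977 to 78925387.

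TIMP3 encodes the inhibitor that stays bound to the extracellular matrix and also blocks sheddases such as ADAM17. It had 0 counts in the PC-3 monoculture, 772 (49.3 CPM) in the PC-3 coculture, 3 in the LNCaP monoculture and 1040 (67.0 CPM) in the LNCaP coculture. As for MMP2, either coculture was far above either monoculture. The coculture was at least 262-fold higher for PC-3, and for LNCaP 353-fold higher (120.4 to 1714) from 3 counts. TIMP3, on chromosome 22 (32801705 to 32863041), lies within the span of SYN3, which had 3 counts or fewer in each library.

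**Figure D2:**
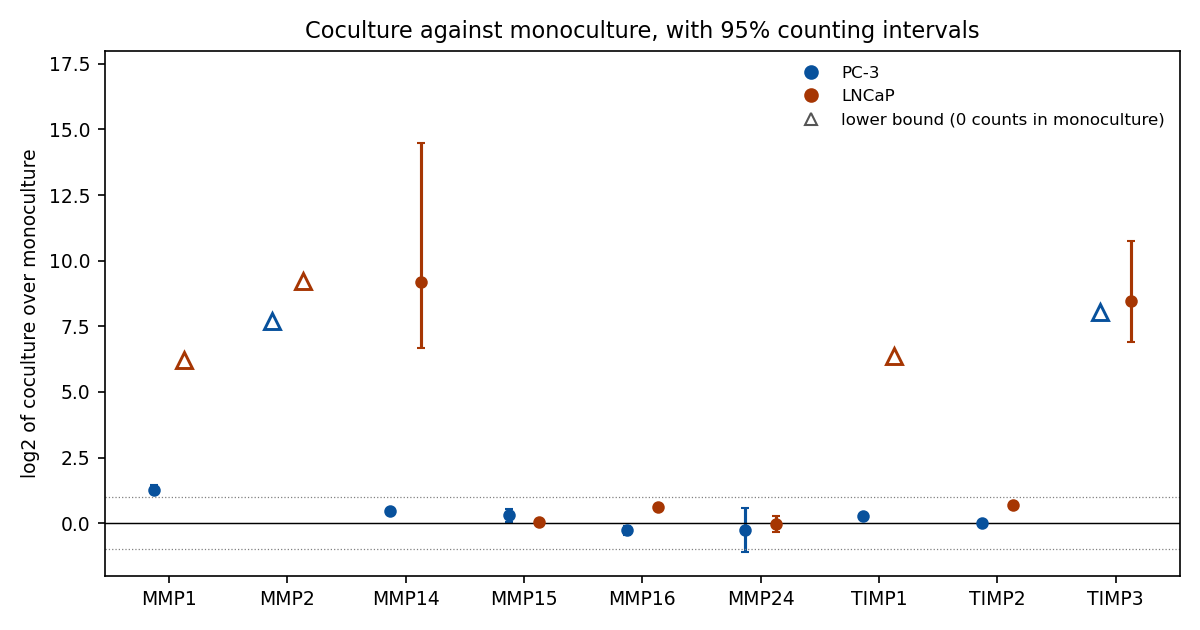
Log2 of coculture over monoculture for the 9 genes in PC-3 (blue) and LNCaP (brown), with 95% counting intervals, open triangles for lower bounds where the monoculture had 0 counts, and dotted lines at 2-fold. In PC-3, MMP1, MMP2 and TIMP3 lie above the upper dotted line, and in LNCaP MMP14 and TIMP1 do too.

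In the PC-3 coculture, 3 of the 9 genes were at least 2-fold higher than in the PC-3 monoculture and 0 at least 2-fold lower, where 2.23% of 14417 genes were higher and 1.01% lower. All 9 reached 1 CPM in 1 of these 2 libraries. Those 3 were MMP1, MMP2 and TIMP3, and the median log2 fold of the 9 genes was 0.30, against 0.00 for all genes compared. In the LNCaP coculture, 5 of the 9 were at least 2-fold higher (MMP1, MMP2, MMP14, TIMP1 and TIMP3) and 0 lower, where 4.56% of 14119 genes were higher and 3.03% lower. The median log2 fold of the 9 genes was 6.81 there (8.24 with a prior count of 0.5 in place of 2), or 6.22 when a gene at 0 counts takes its bound, against 0.00 for all genes compared. MMP2 and TIMP3 reached 1 CPM through the coculture alone in either line, as did MMP1, MMP14 and TIMP1 in LNCaP. Fibroblast markers were higher in the same cocultures, as given above, and their part in these differences was not tested.

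In CPM, the gains of MMP1, MMP2, MMP14, TIMP1 and TIMP3 ran from 36.8 to 50.4 in PC-3 and from 14.2 to 115 in LNCaP. Transcript length was not corrected for here, so these sizes can be compared between the lines but not between genes. The coculture exceeded the monoculture in PC-3 by 36.8 CPM (32.1 to 41.4) for MMP1, 39.4 (36.3 to 42.5) for MMP2, 50.4 (41.5 to 59.4) for MMP14, 42.5 (32.2 to 52.8) for TIMP1 and 49.3 (45.8 to 52.7) for TIMP3. In LNCaP the same differences were 14.2 CPM (12.3 to 16.1) for MMP1, 115 (109 to 120.0) for MMP2, 36.4 (33.4 to 39.4) for MMP14, 15.9 (13.9 to 17.8) for TIMP1 and 66.9 (62.8 to 70.9) for TIMP3. MMP1, MMP14 and TIMP1 thus gained less in LNCaP than in PC-3, and MMP2 and TIMP3 more. MMP16 and TIMP2, which the LNCaP monoculture already expressed, gained 66.4 CPM (57.7 to 75.2) and 80.3 CPM (71.2 to 89.4) in LNCaP.

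In the LNCaP monoculture 3 of the 9 were at least 2-fold higher than in the PC-3 monoculture, where 22.1% of 15160 genes were, and 4 were at least 2-fold lower, where 23.6% of all genes were. MMP2 and TIMP3 were too low in these libraries to compare. The higher genes were the membrane-type genes MMP24 (6.10-fold, 4.10 to 9.38), MMP15 (5.40-fold, 4.68 to 6.24) and MMP16 (2.99-fold, 2.73 to 3.27). The lower genes were TIMP2 (3.80-fold lower, 3.62 to 3.99), MMP14 (2181-fold lower, 391 to 86192, from 1 count), MMP1 (at least 137-fold lower) and TIMP1 (at least 1042-fold lower).

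Between the cocultures, 4 of the 9 genes were at least 2-fold higher in LNCaP, where 20.7% of 15155 genes were, and 4 at least 2-fold lower, where 23.6% were. MMP24 was 7.07-fold higher in the LNCaP coculture (4.59 to 11.3), MMP16 5.61-fold (5.11 to 6.17), MMP15 4.53-fold (3.97 to 5.17) and MMP2 2.91-fold (2.66 to 3.20). TIMP3 was 1.36-fold higher (1.24 to 1.50). TIMP1 was 15.2-fold lower (13.3 to 17.3), MMP14 5.17-fold lower (4.72 to 5.66), MMP1 4.42-fold lower (3.82 to 5.14) and TIMP2 2.31-fold lower (2.22 to 2.41). Of the 17 fibroblast markers in the table, 16 had more than 3 counts in a coculture, and their ratios of LNCaP to PC-3 coculture ran from 0.647 (PDGFRA) to 4.11 (DCN) with a median of 1.61, 13 of them above 1. MMP2 and TIMP3 both lay inside that range, between DPT (1.26, from 5 against 4 counts) and THY1 (1.48) for TIMP3, and between DKK3 (2.53, 2.14 to 3.00) and LUM (3.38, 2.85 to 4.03) for MMP2. By their ratios, TIMP1, MMP14, MMP1 and TIMP2 lay below it, and MMP15, MMP16 and MMP24 above it. The counting interval of DCN (3.29 to 5.18) overlapped those of MMP15, MMP16 and MMP24, and covered most of that of MMP15. Some markers were also present without fibroblasts. PDGFRA and COL6A3 had 186 and 596 counts in the PC-3 monoculture, and CAVIN1 and AEBP1 had 214 and 26 in the LNCaP monoculture. Which cells set these ratios was not tested.

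**Figure D3:**
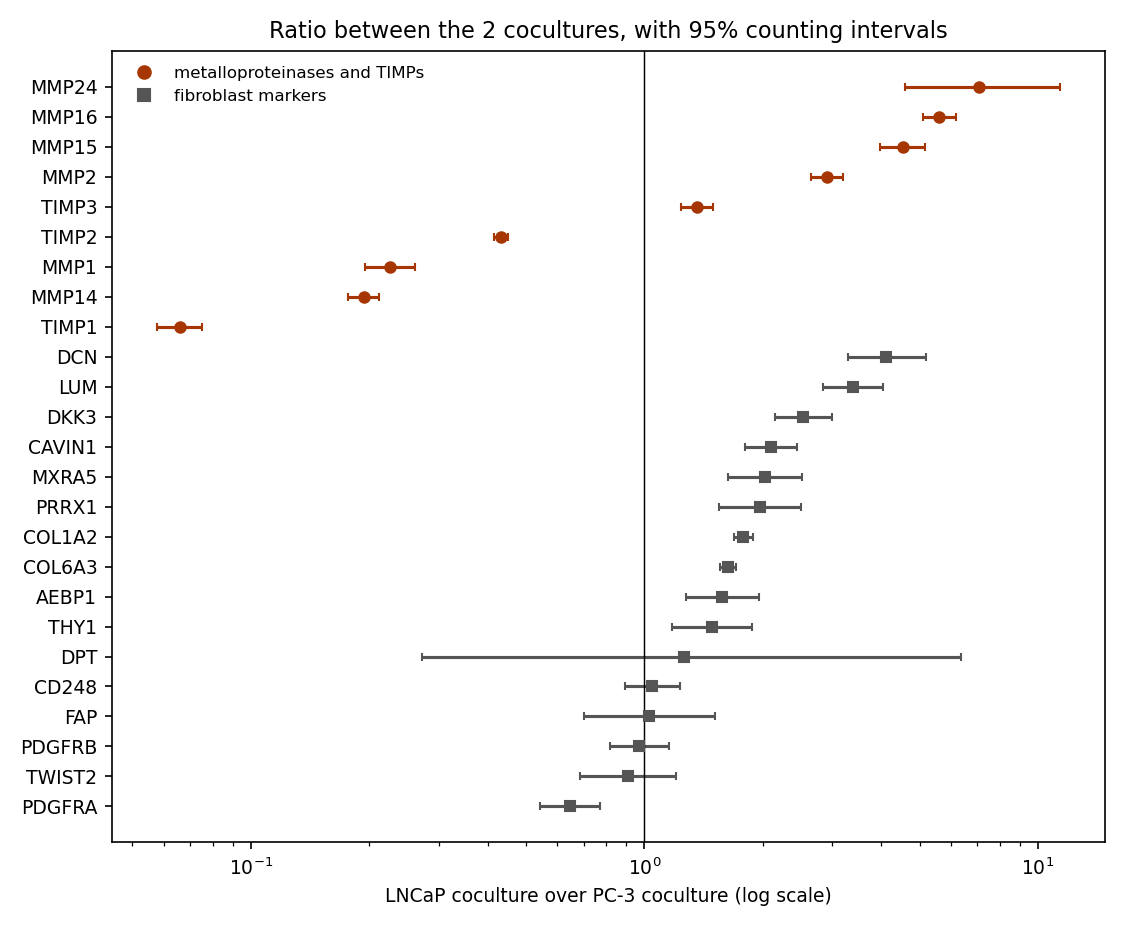
Ratio of the LNCaP coculture to the PC-3 coculture on a log axis for the 9 genes (circles) and for 16 fibroblast markers (squares), with 95% counting intervals. The markers range from 0.647 to 4.11, and TIMP3 lies among them at 1.36 and MMP2 at 2.91. The ratios of the other members lie outside that range, but the intervals of MMP15, MMP16 and MMP24 overlap that of DCN (3.29 to 5.18). TIMP1 is lowest of the genes drawn at 0.0660.

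Comparing levels between genes needs a correction for length, so CPM was divided by the length of the principal transcript in kilobases (from 0.892 for TIMP1 to 11.6 for MMP16). In the PC-3 monoculture the order was TIMP1 (222 CPM per kilobase), TIMP2 (132), MMP14 (37.0), MMP1 (13.2), MMP16 (3.50), MMP15 (3.40) and MMP24 (0.412). MMP16 and MMP15 were not apart within counting error (ratio 1.03, 0.882 to 1.20). In the LNCaP monoculture TIMP2 led (34.8), followed by MMP15 (18.4), MMP16 (10.5) and MMP24 (2.51), each apart from the next.

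With fibroblasts, the order kept TIMP1 first in PC-3 and TIMP2 first in LNCaP. In the PC-3 coculture TIMP1 (269.6 CPM per kilobase), TIMP2 (131), MMP14 (50.5) and MMP1 (31.8) were followed by TIMP3 (10.7) and MMP2 (10.5), which were level (ratio 1.02, 0.914 to 1.13). MMP15 (4.19), MMP16 (2.89) and MMP24 (0.347) came after them. In the LNCaP coculture MMP2 (30.7) stood second behind TIMP2 (56.8), with MMP15 (19.0), TIMP1 (17.8), MMP16 (16.2), TIMP3 (14.6), MMP14 (9.78), MMP1 (7.20) and MMP24 (2.45) below. There the neighbours MMP15 and TIMP1 (ratio 1.07, 0.929 to 1.23) and TIMP1 and MMP16 (1.10, 0.959 to 1.25) were not apart within counting error.

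Summed on this scale, the 6 metalloproteinases amounted to 57.5 CPM per kilobase in the PC-3 monoculture, 100.3 in the PC-3 coculture, 31.4 in the LNCaP monoculture and 85.3 in the LNCaP coculture. The 3 inhibitors summed to 354, 412, 34.8 and 89.1 in the same order. The 6 metalloproteinases over the 3 inhibitors thus gave 0.162 and 0.244 in the PC-3 libraries without and with fibroblasts. In the LNCaP libraries the ratio was 0.900 and 0.957. These sums count transcripts and give no measure of enzyme activity. They leave out other metalloproteinase genes, so the ratios, and the shares below, hold for the summed genes alone. Of 7 further metalloproteinase genes measured in the monocultures, 5 were at least 2-fold lower in LNCaP than in PC-3 and 2 higher. In PC-3 and LNCaP alone, MMP13 was at 25.7 and 0.507 CPM, MMP17 at 21.2 and 0.0633, and MMP11 at 2.38 and 10.2. MMP14 made up 64.4% of the metalloproteinase sum in the PC-3 monoculture, 50.4% in the PC-3 coculture, 0.0541% in the LNCaP monoculture and 11.5% in the LNCaP coculture. TIMP2 made up 99.9% of the inhibitor sum in the LNCaP monoculture and 63.7% in the LNCaP coculture.

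**Figure D4:**
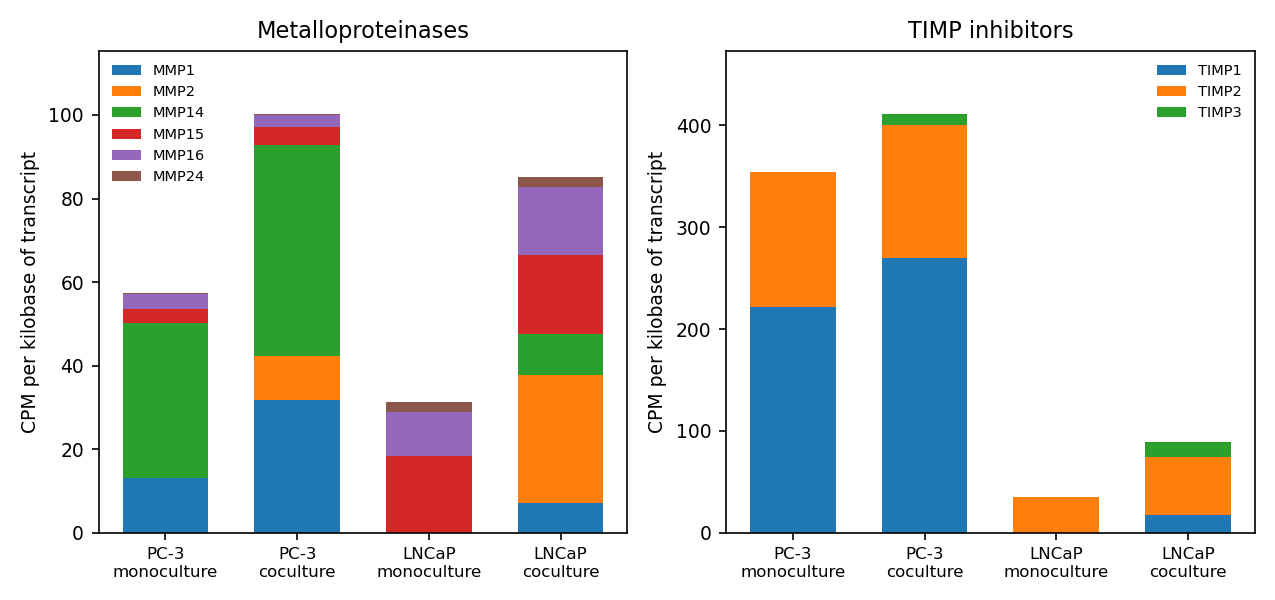
Stacked CPM per kilobase of transcript for the 6 metalloproteinases (left) and the 3 TIMPs (right) in each library, on separate axes that start at 0. The inhibitor bars of the PC-3 libraries reach 354 and 412, those of the LNCaP libraries 34.8 and 89.1, and MMP2 appears in the coculture bars and not in the monoculture bars.

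The 3 transcripts of the MMP2 activation complex stood in different proportions in the 2 cocultures. MMP14 over TIMP2, per length, was 0.280 (0.267 to 0.294) in the PC-3 monoculture, 0.385 (0.369 to 0.401) for PC-3 with fibroblasts and 0.172 (0.157 to 0.188) for LNCaP with fibroblasts. MMP2 over TIMP2 was 0.0801 (0.0737 to 0.0870) for PC-3 with fibroblasts and 0.540 (0.509 to 0.572) for LNCaP with fibroblasts. MMP2 over MMP14 was 0.208 (0.191 to 0.227) and 3.14 (2.85 to 3.45) in the same 2 libraries, so MMP14 was the more abundant transcript of that pair in PC-3 and MMP2 in LNCaP.

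Promoter sequence is shown for the genes that were near 0 in a monoculture and present in the coculture, TIMP3, TIMP1 and MMP14, and for MMP15, which differed little between them. RefSeq windows (GRCh38.p14) were matched for 5 of the 9 genes, MMP14, MMP15, MMP24, TIMP1 and TIMP3. MMP1, MMP2, MMP16 and TIMP2 had no entry. Each line gives the 250 bases before the transcription start on the plus strand, with matches to GGGCGG or its reverse complement CCGCCC, the core of the SP1 motif, in capitals. The windows are chr22:32801455-32801704 (TIMP3), chrX:47582186-47582435 (TIMP1), chr14:22836335-22836584 (MMP14) and chr16:58025504-58025753 (MMP15).
TIMP3: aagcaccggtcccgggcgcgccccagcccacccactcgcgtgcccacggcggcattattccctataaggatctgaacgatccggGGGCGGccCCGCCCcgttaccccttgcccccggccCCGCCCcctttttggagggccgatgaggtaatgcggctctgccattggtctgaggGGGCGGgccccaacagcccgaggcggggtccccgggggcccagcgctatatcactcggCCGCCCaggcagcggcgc
TIMP1: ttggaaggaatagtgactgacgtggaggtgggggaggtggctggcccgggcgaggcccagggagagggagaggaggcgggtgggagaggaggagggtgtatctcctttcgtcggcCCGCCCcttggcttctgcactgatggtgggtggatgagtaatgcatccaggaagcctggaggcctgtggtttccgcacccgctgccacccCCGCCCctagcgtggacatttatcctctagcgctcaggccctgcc
MMP14: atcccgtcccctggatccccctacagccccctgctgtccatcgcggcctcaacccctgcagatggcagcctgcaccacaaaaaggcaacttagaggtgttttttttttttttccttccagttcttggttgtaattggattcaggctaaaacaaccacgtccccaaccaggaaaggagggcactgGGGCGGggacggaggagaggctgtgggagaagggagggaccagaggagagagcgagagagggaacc
MMP15: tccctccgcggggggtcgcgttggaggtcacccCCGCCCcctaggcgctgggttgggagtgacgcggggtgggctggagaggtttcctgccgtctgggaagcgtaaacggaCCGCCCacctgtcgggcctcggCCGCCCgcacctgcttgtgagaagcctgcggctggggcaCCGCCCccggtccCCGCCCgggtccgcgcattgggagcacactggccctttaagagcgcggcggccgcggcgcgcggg
TIMP3 and MMP15 held 5 matches each, MMP24 3, TIMP1 2 and MMP14 1, and no match overlapped another. Motif matches were counted in whole RefSeq windows, which run a little past the start and so past the 250 bases shown. Of 35116 such windows, 45.0% held at least 1 match to the SP1 core. The AP-1 motif TGAGTCA (reverse complement TGACTCA) and the TATA box TATAAA (reverse complement TTTATA) had 0 exact matches in these 5 windows, where 4.95% and 11.5% of all windows held 1. Variants of a motif were not searched, so 0 does not mean that no such site is present. The TIMP1 window, for example, holds the near match tgagtaa. CpG dinucleotides in the 250 bases numbered 26 for TIMP3, 31 for MMP15, 25 for MMP24, 12 for TIMP1 and 7 for MMP14, against a median of 11 and quartiles of 3 and 23 over all windows. MMP14 had the fewest of the 5 and MMP15 the most. A match is a description of these letters and not evidence of binding.

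Genes whose profile over the 4 libraries lay nearest to each member were found by the Euclidean distance between centred log2(CPM + 0.5) values, among 13006 other genes at 5 CPM or more in 1 library. For MMP2 they were BGN, a small proteoglycan gene (distance 0.80), TIMP3 (0.95) and the type I collagen gene COL1A2 (1.37). For TIMP3 they were BGN (0.77), MMP2 (0.95) and CD248, the surface antigen endosialin (1.43). For MMP14 they were CD44 (0.42), TPBG (0.51) and IGFBP5, an insulin-like growth factor binding protein (0.54). For TIMP1 they were ANXA2P2, a copy of the annexin gene ANXA2 with which it can share reads (0.32), RND3 (0.33) and ANXA2 itself (0.39). For MMP1 they were the fibrillin gene FBN1 (0.69), NBL1 (0.70) and IFI16 (0.79). The profiles nearest to MMP15 were those of NUDT19 (0.07), RAB6D (0.08) and SLC22A17 (0.10), and nearest to MMP24 were ZG16B (0.03), SLC25A33 (0.05) and CEL (0.06). The 4 libraries are few points, and a small distance says that levels moved alike over them and nothing more.

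The counts of pathway lists that follow stand beside 2.23% higher and 1.01% lower over all genes in the PC-3 coculture, and 4.56% and 3.03% in the LNCaP coculture. A gene under 1 CPM in the monoculture is counted only if the coculture lifts it past 1 CPM, so such genes could hardly be anything but higher, and their number is given as entering through the coculture. Of 18 listed (further MMPs and TIMP4), 14 were in the table. With fibroblasts, PC-3 had 2 of 8 measured genes up at least 2-fold and 0 down (median log2 fold 0.34). Of those 2, 1 entered through the coculture (MMP3). The higher ones were MMP11, stromelysin 3 (125 counts against 38, 3.35-fold, 2.31 to 4.95), and MMP3, stromelysin 1 (85 against 3, 28.9-fold, 9.55 to 143). LNCaP had 6 of 8 up and 0 down (median 1.69). All 6 entered through the coculture, and MMP11 was the single one with 100 counts in either library. It had 155 against 161 (fold 0.980, 0.781 to 1.23). MMP3 had 71 counts against 0 there, at least 24.1-fold higher. MMP3 has under 100 counts and was picked after its values were seen. Between the monocultures, LNCaP held 5 of 7 at least 2-fold lower, where 23.6% of all genes were, and 2 higher, where 22.1% were. MMP13, a collagenase, had 8 counts in LNCaP against 410 in PC-3, and MMP10, stromelysin 2, had 4 against 264.

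The ADAM and ADAMTS proteinases are relatives that shed membrane proteins and cut proteoglycans. Of 8 ADAM genes measured in PC-3, 1 was at least 2-fold higher and 0 lower (median log2 fold 0.33), and of 7 in LNCaP 1 was higher and 0 lower (median 0.27). ADAM10 was 1.24-fold higher in the PC-3 coculture (1.15 to 1.33) and 1.31-fold higher in the LNCaP coculture (1.25 to 1.38). In PC-3, 4 of 12 ADAMTS genes were higher by that measure and 0 lower (median 0.46), and of 7 in LNCaP 2 were higher and 0 lower (median -0.10). Each of the ADAM and ADAMTS genes counted as higher entered through the coculture. ADAMTS1, which cuts versican and aggrecan, had 24984 counts in the LNCaP monoculture against 638 in the PC-3 monoculture, 39.6-fold higher (36.6 to 42.9), and its coculture folds were 0.932 (0.916 to 0.949) in LNCaP and 0.765 (0.678 to 0.862) in PC-3.

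FURIN, the convertase that removes the propeptide of membrane-type enzymes, had 1045 and 1195 counts in PC-3 without and with fibroblasts and 1136 and 1332 in LNCaP. Of 3 convertases measured, 0 were 2-fold apart with fibroblasts in PC-3 (median log2 fold 0.22) or LNCaP (median 0.01). PCSK6, a related convertase, was 27.1-fold higher in the LNCaP than in the PC-3 monoculture (19.3 to 39.1). The plasminogen system, whose product plasmin can activate MMP precursors, had 5 measured genes, of which 0 were 2-fold apart in PC-3 (median log2 fold 0.02) and 5 at least 2-fold higher in LNCaP (median 3.47, or 3.44 at the bounds), 4 of them entering through the coculture. PLAU, the urokinase gene, had 5737 counts in PC-3 alone against 0 in LNCaP alone.

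Among 10 cell surface regulators, 0 of 10 measured were 2-fold apart in PC-3 (median log2 fold 0.12), and 2 of 8 were at least 2-fold higher and 0 lower in LNCaP (median 0.33), both entering through the coculture, with CD44 at 776 counts against 1 (790.0-fold, 141 to 31242). RECK, a membrane-anchored inhibitor of several metalloproteinases, was picked after its values were seen and had 65 and 74 counts in PC-3 without and with fibroblasts and 118 and 117 in LNCaP. Of the matrix proteins that these enzymes cut, 5 of 16 were at least 2-fold higher in PC-3 (median 0.66; 3 entered through the coculture) and 11 of 14 in LNCaP (median 4.84, or 4.53 at the bounds; 8 entered through the coculture), with 0 lower. FN1, the fibronectin gene, was among those within 2-fold, at 1.00-fold (0.964 to 1.04) in PC-3 and 1.46-fold (1.43 to 1.49) in LNCaP. COL1A2 and DCN stand on both this list and the fibroblast marker list. A list of 14 transcription factors held AP-1 and ETS factors, families known to act on metalloproteinase promoters, and RUNX2, which belongs to neither. Of these 14, 2 were at least 2-fold higher in PC-3 (median log2 fold 0.03, 0 entering through the coculture) and 0 lower. In LNCaP, 4 were higher (median 0.31, all 4 entering through the coculture) and 0 lower. FOSL1 had 8538 counts in PC-3 alone against 5 in LNCaP alone, and ETV4 had 3050 against 3. FOS was 1.28-fold higher with fibroblasts in LNCaP (1.13 to 1.45). In PC-3, where it is under 100 counts and was picked after its values were seen, it was 2.96-fold higher (1.98 to 4.55; 96 counts against 33).

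**Figure D5:**
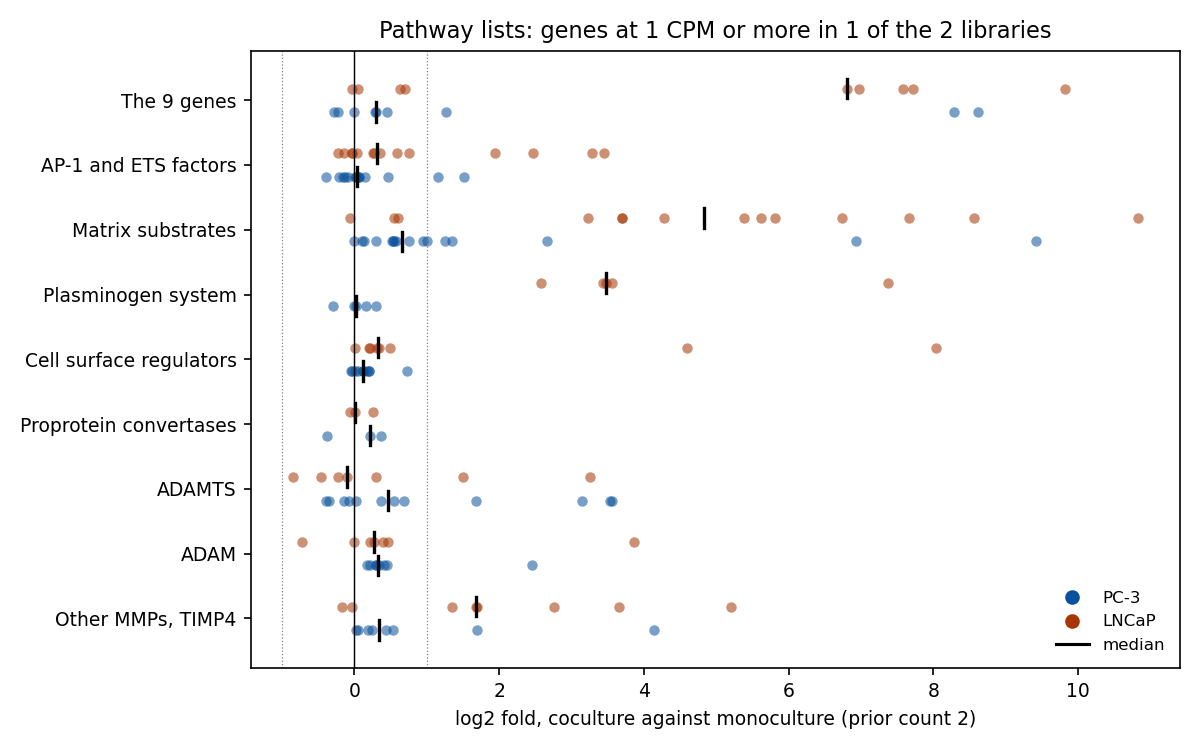
Log2 fold of coculture against monoculture, with a prior count of 2, for genes of 8 pathway lists and for the 9 genes at the top, PC-3 in blue and LNCaP in brown, with black bars at the medians and dotted lines at 2-fold. The LNCaP medians of the 9 genes (6.81), the matrix substrates (4.84) and the plasminogen system (3.47) lie furthest to the right, and the convertases lie within 2-fold in both lines.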

How the data were processed

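RNA from 4 engineered tissue groups was sequenced from TruSeq RNA v2 libraries, per the labels' protocols. The authors deposited estimated counts by gene symbol. The submitters' processing notes name STAR, Partek, FastQC and hg38; tool versions, roles, the annotation and any filter are not given in the sources used here. From 33.7% to 34.1% of a library's values were fractional, and all were rounded.

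TMM scaling (edgeR 4.0.16, R 4.3.3) gave counts per 1000000 (CPM). A fold is a ratio of these, with an exact 95% conditional binomial interval, differences in CPM have a normal 95% interval on Poisson counts, and log2 folds used a prior count of 2. A gene at 0 in 1 library was bounded against 3 counts, and pairs with 3 counts or fewer in each library got no fold. Genes were counted as at least 2-fold apart by log2 fold, at 1 CPM or more in 1 of the 2 libraries. Groups came from the sample titles, with 1 library each, so no test was run. Scripts were tested on simulated data. The 9 genes, the pathway lists and the markers were chosen with earlier results of these data known. The text names, per list, at most 4 genes with the largest log2 fold and at least 100 counts, other genes being named after their values were seen, and the 3 nearest profiles for 7 of the 9 genes. Motifs were searched on both strands. Transcript lengths came from GENCODE v29. Other steps ran in Python 3.11.15 with scipy 1.17.1 and pandas 2.3.3. The alternatives were DESeq2 1.42.0 size factors, library totals, a prior count of 0.5, unrounded counts, no filter or a 5 CPM filter, and, added after the data were seen, a length correction by the 500 genes nearest in length.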

Additional observations from a re-analysis of the deposited data

Results flagged for a closer look

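MMP16 and TIMP2 pointed opposite ways in the 2 coculture comparisons. For MMP16 the log2 fold was -0.27 in PC-3 and 0.63 in LNCaP, a difference (LNCaP minus PC-3) of 0.91 with a 95% counting interval of 0.72 to 1.09. For TIMP2 the log2 folds were -0.01 and 0.71, a difference of 0.71 (0.62 to 0.81), and the PC-3 fold of TIMP2 had an interval that reached both sides of 1. The opposite signs held under all 5 alternatives run for these folds. With 1 library per group, the difference between the lines was not tested.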

How the results depend on the processing

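The counts of the 9 genes at least 2-fold higher or lower did not move by over 1.5 times under any alternative run. Of 215 values for the single folds and their differences under 5 alternatives, 0 changed direction past 2-fold and 211 stayed within the counting interval. That interval is open-ended for a gene at 0 counts and very wide from 1 to 3, so staying within it shows little there. With a prior count of 0.5, the LNCaP log2 folds of MMP1, MMP2 and TIMP1, each at 0 in the monoculture, became 8.80, 11.81 and 8.96, and the median over the 9 genes became 8.24 in place of 6.81. The 4 values outside their interval came from the length correction, which gave TIMP1 a log2 fold of 0.50 in the PC-3 coculture and -4.13 between the cocultures, and TIMP2 -1.79 between the monocultures and -1.11 between the cocultures. The counts over all genes depended on the filter: without one, 907 genes were higher and 440 lower in the PC-3 coculture and 1286 and 753 in the LNCaP coculture, and at 5 CPM 87 and 21, and 240 and 154, since each filter changes how many low genes are compared. No paired analysis was possible because each group had 1 library, and for the same reason no library could be left out. Genes with 3 counts or fewer in a library have bounds or very wide intervals, and MMP24 in PC-3 had too few counts to show a small difference.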
